A study of Mus musculus with 8 samples.

Results

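The transcripts of 10 integrin subunits were followed in adult mouse neural stem cell cultures: the alpha subunits Itga2, Itga3, Itga5, Itga6, Itga7, Itga8 and Itgav, and the beta subunits Itgb1, Itgb5 and Itgb8. They were chosen by gene name, with earlier results of these data known, which had named Itga8. Their probes were found through the accession that the array files give for each probe. On these arrays 13332 genes had a usable probe. Of the 10 subunits, 9 had a probe that could be matched and 8 had one that passed the filter on dim probes. The 2 Itga2 probes were well above background on at most 1 of 8 arrays, so no change can be given for Itga2, and no probe was matched to Itgb8.

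Integrins are cell surface receptors made of an alpha and a beta chain, which tie the extracellular matrix to the actin skeleton and signal through kinases at focal adhesions. The alpha chain largely sets the ligand: alpha5, alpha8 and alphav bind proteins with an arginine-glycine-aspartate (RGD) motif, alpha3, alpha6 and alpha7 bind laminins, and alpha2 binds collagens. Most of these chains pair with beta1, whereas beta5 and beta8 pair with alphav, and alphav/beta8 is known for releasing active TGF-beta. In the adult brain, alpha6/beta1 is known as a laminin receptor of neural stem cells in their niche.

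The cells were secondary neurospheres, floating clusters grown from dissociated primary spheres of the hippocampus of mice aged 7 to 9 weeks, with bFGF, EGF and heparin. Of the 4 groups, WT and Sirt1 KO had the mixed strain 129/ICR and were cultured for 6 days, with a female mouse labelled for replicate 1 and a male for replicate 2. DMSO and resveratrol were wild-type male C57BL/6 cultures grown for 5 days and then given the solvent DMSO or resveratrol for 24 hours. Sirt1 encodes an NAD-dependent deacetylase, and resveratrol is a plant stilbene often used as a SIRT1 activator. The labels give the resveratrol dose as 10 with the unit written "mm", which does not settle the concentration. They do not say which part of Sirt1 was deleted or how many mice went into a culture. With 2 arrays per group, a p-value here weighs a difference only against array-to-array spread, which may be technical. In whole cultures fewer cells of a type and less RNA per cell cannot be told apart.

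Total RNA was labelled with Cy3 and hybridised to 8 one-colour Agilent arrays. Values are log2 signals minus the 75th percentile of the array, so a value of 0 is a signal equal to that percentile. Levels of different probes were not compared, apart from the sums over cell type markers. The 4 replicate 1 arrays were brighter, with a 75th percentile signal of 716 to 871 against 249 to 377 for replicate 2, and 53.0% to 72.0% of probes were well above background. Replicate numbers also marked slides: DMSO and resveratrol of the same number shared a slide, and both replicate 2 arrays of the genotype comparison lay on the slide scanned on the other day. The 2 Sirt1 probes differed by 0.01 and -0.30 (log2) between Sirt1 KO and WT, and since their place relative to the deletion is not given, the arrays do not check the genotype. All 14 neural stem cell markers were measured, among them the intermediate filament gene Nes (4.64 to 5.75) and the transcription factor gene Sox2 (2.06 to 2.62). Of markers of other cells, 2 of 8 endothelial, 3 of 10 microglial and 6 of 12 pericyte, smooth muscle and fibroblast genes had a usable probe, and Pecam1, Cdh5, Cx3cr1, Aif1, Pdgfrb, Rgs5 and Dcn did not.

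In Sirt1 KO, Itga8 was lower than in WT (-1.68, log2) and after resveratrol it was higher than in DMSO (1.33), on both replicate pairs each time. Itga7 was higher in Sirt1 KO (1.52) and Itga5 was higher after resveratrol (0.72). The beta1 and alphav transcripts differed by 0.22 or less in either comparison, on both of their probes. No integrin subunit passed limma's test at an adjusted p of 0.05 in either one.

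Itga8 and Itga5 are the RGD receptor subunits with the largest differences after resveratrol, so the stretch of 250 bases before their transcription starts is shown, on the strand of the gene, from RefSeq with build GRCm38.p6. The Itga8 stretch is chr2:12301945-12302194 on the minus strand, and its capitals mark a match to TGANNNNGC, the core of the antioxidant response element, read on the opposite strand. The Itga5 stretch is chr15:103366792-103367041 on the minus strand, and its capitals mark 2 matches to the GC box GGGCGG, read on the opposite strand.
Itga8: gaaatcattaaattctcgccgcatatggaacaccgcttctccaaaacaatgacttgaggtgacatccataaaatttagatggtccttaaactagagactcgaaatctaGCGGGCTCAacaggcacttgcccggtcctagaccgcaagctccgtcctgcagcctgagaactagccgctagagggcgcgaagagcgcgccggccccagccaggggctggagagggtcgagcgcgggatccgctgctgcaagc
Itga5: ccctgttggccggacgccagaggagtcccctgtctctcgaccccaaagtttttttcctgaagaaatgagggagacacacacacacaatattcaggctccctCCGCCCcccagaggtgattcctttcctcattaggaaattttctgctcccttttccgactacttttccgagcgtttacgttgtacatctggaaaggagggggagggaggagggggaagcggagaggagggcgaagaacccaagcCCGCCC
TGANNNNGC was present in 35.2% of 32851 promoter stretches of this length and GGGCGG in 32.7%, both strands searched. In the 9 stretches of the 8 subunits listed in that table (Itga6 and Itga7 were not listed), GGGCGG was found in 5, TGANNNNGC in 3 and CACNAG, the N box bound by Hes factors, in 2 (36.7% of all stretches). Neither the TATA box TATAAA (12.4% of all stretches) nor the RBPJ core TGGGAA (21.6%) was found in these 9. The searched motifs can overlap, and a match is a run of letters, not a binding site.

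**Figure D1:**
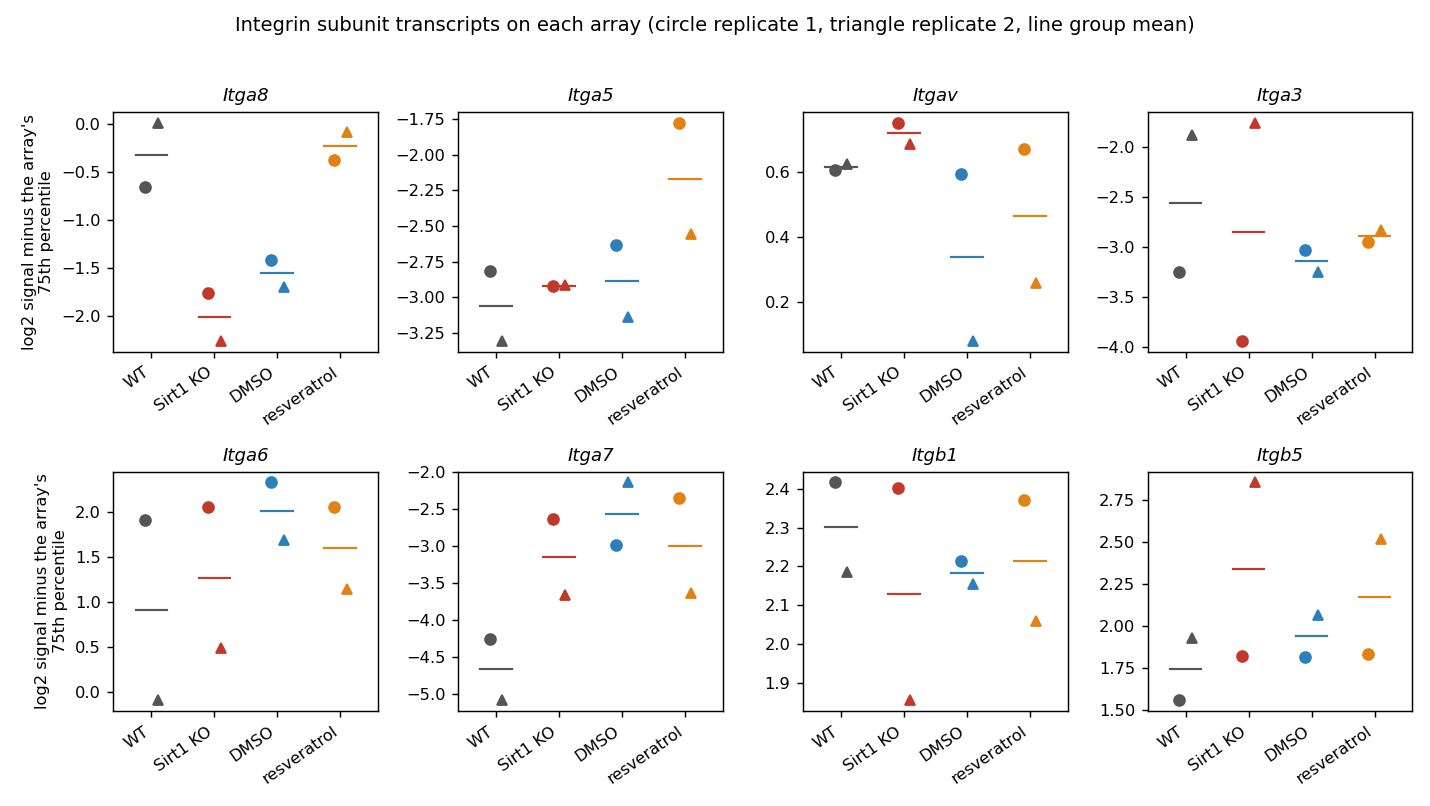
Log2 signal minus the array's 75th percentile (vertical axis, a separate scale for each gene) for 8 integrin subunits in the WT, Sirt1 KO, DMSO and resveratrol groups. Circles are replicate 1 arrays, triangles replicate 2 arrays and lines group means of 2 arrays. For Itga8 the WT and resveratrol arrays lie between -0.65 and 0.02 and the Sirt1 KO and DMSO arrays between -2.25 and -1.41.

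Among the RGD receptors, Itga8 encodes alpha8, which pairs with beta1 and binds nephronectin, fibronectin, tenascin-C and the latency peptide of TGF-beta. Its values in WT were -0.65 and 0.02, in Sirt1 KO -1.75 and -2.25, in DMSO -1.41 and -1.69, and with resveratrol -0.37 and -0.07, in the order replicate 1 and 2. Both Sirt1 KO arrays were lower than both WT arrays, both resveratrol arrays were higher than both DMSO arrays, and the resveratrol arrays lay within the range of the WT arrays. The order of the group means was resveratrol (-0.22 ± 0.21, SD, n = 2), WT (-0.32 ± 0.47), DMSO (-1.55 ± 0.20) and Sirt1 KO (-2.0 ± 0.35). The resveratrol and WT arrays overlapped, and the DMSO arrays lay just above the Sirt1 KO arrays without overlapping them.

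Itga8 was 3.21-fold lower in Sirt1 KO than in WT (log2 difference -1.68, SE 0.33, 95% interval -2.47 to -0.90). The difference was -1.10 on the replicate 1 pair and -2.27 on the replicate 2 pair, and the latter pair shared a slide. Its unadjusted limma p of 0.00149 ranked 3 of 13332 genes, and the limma adjusted p was 1.0, as the smallest adjusted p of any gene in this comparison was 1.0. With replicate number as a block its adjusted p was 0.0508, which missed the threshold, and with slide as a block the difference was -1.80 (adjusted p = 0.407).

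Resveratrol raised no integrin subunit past the threshold, and Itga8 had the largest difference of the 8 measured. It was 2.52-fold higher than in DMSO (log2 difference 1.33, SE 0.33, 95% interval 0.55 to 2.11), with 1.04 on the slide of replicate 1 and 1.62 on that of replicate 2. Its unadjusted p of 0.00519 ranked 14, and the limma adjusted p was 1.0, or 0.0794 with replicate number as a block.

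The resveratrol difference of Itga8 minus its Sirt1 KO difference was 3.02 (SE 0.46, 95% interval 1.91 to 4.12), with 2.14 on the replicate 1 arrays and 3.89 on the replicate 2 arrays. It ranked 2 of 13332 genes by unadjusted p (0.000384) and did not pass limma's adjustment (adjusted p = 1.0). With replicate number as a block it passed (adjusted p = 0.0254), as did 0.203% of all genes in that direction (0.165% in the other), but not when the block was combined with quantile normalization (0.0504) or with the mean of each gene's probes (0.0514). Leaving out resveratrol replicate 2 from the blocked fit also ended the call (0.0520), and with slide as the block in place of replicate number the adjusted p was 0.555. With slide as a block 0 genes were called in this contrast, in Sirt1 KO minus WT or in resveratrol minus DMSO. The 2 differences come from different strains, so strain and perturbation cannot be told apart in this contrast.

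A second Itga8 probe was well above background on all 8 arrays. It gave -1.10 and -0.90 in WT, -2.31 and -2.77 in Sirt1 KO, -2.06 and -2.06 in DMSO, and -0.83 and -0.83 with resveratrol. Its groups were separate in the same directions, with differences of -1.54 for Sirt1 KO and 1.23 for resveratrol. The remaining Itga8 probe was above background on 3 arrays only and gave -1.04 and 0.48.

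**Figure D2:**
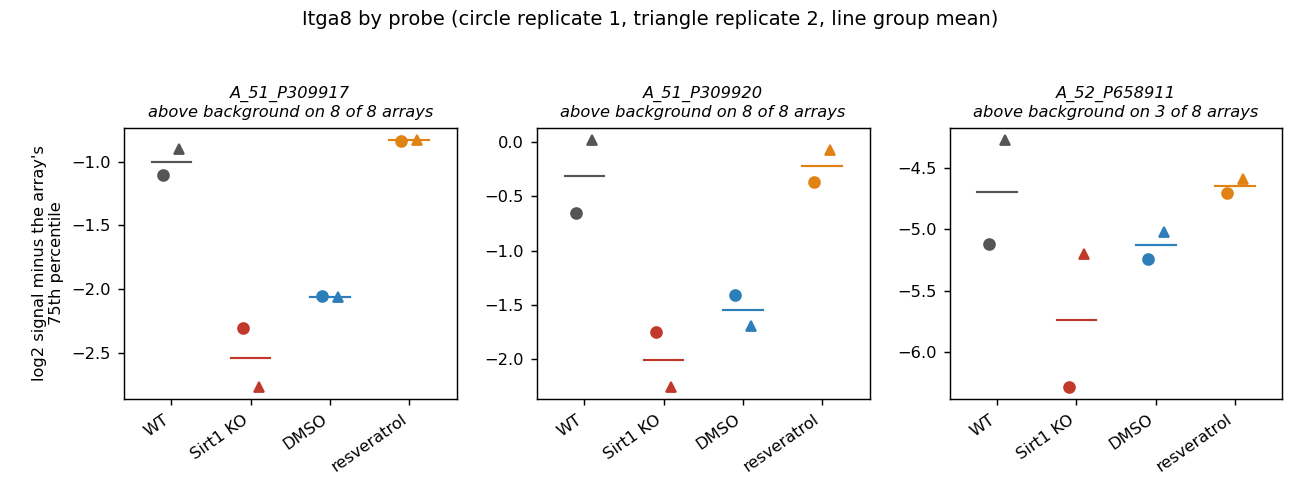
Log2 signal minus the array's 75th percentile (vertical axis, a separate scale for each probe) of the 3 Itga8 probes in the 4 groups, with circles for replicate 1, triangles for replicate 2 and lines for the mean of 2 arrays. On both probes that were above background on 8 arrays, Sirt1 KO and DMSO lie below WT and resveratrol.

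Itga5 encodes alpha5, the main fibronectin receptor chain together with beta1. Its values were -2.82 and -3.31 in WT, -2.92 and -2.92 in Sirt1 KO, -2.63 and -3.14 in DMSO, and -1.78 and -2.56 with resveratrol. The resveratrol arrays were the highest 2 of the 8, and the other 3 groups overlapped. The means ran from resveratrol (-2.17 ± 0.55, SD, n = 2) through DMSO (-2.89 ± 0.36) and Sirt1 KO (-2.92 ± 0.0) to WT (-3.06 ± 0.34). After resveratrol Itga5 was 1.64-fold higher than in DMSO (log2 difference 0.72, SE 0.40, 95% interval -0.22 to 1.66), with 0.85 and 0.58 on the 2 slides. It did not pass limma's test (adjusted p = 1.0, or 0.227 with the replicate block). Between Sirt1 KO and WT the difference was 0.14 (SE 0.40), and its direction turned with a background estimated around each spot (-0.74).

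Itgav encodes alphav, the partner of beta5 and beta8 and a receptor for vitronectin and latent TGF-beta. Its values were 0.61 and 0.62 in WT, 0.75 and 0.68 in Sirt1 KO, 0.59 and 0.08 in DMSO, and 0.67 and 0.26 with resveratrol. The Sirt1 KO arrays were the highest, by 0.10 over WT (SE 0.26), and the C57BL/6 groups overlapped each other (difference 0.13, SE 0.26). The order of means was Sirt1 KO (0.72 ± 0.05, SD, n = 2), WT (0.61 ± 0.01), resveratrol (0.46 ± 0.29) and DMSO (0.34 ± 0.36), the last 2 closer than their spread. The second Itgav probe gave 0.07 and 0.22 for these differences. The 95% intervals, -0.52 to 0.72 and -0.49 to 0.74, leave room for differences of that size either way.

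In WT and Sirt1 KO the laminin receptor subunits varied more between replicates than between groups, with the exception of Itga7. Itga6, the alpha chain named above for the stem cell niche, was at 1.92 and -0.09 in WT, 2.06 and 0.49 in Sirt1 KO, 2.33 and 1.69 in DMSO, and 2.06 and 1.15 with resveratrol. Replicate 2 was lower than replicate 1 in all 4 groups, as was the 75th percentile signal of those arrays, and the part of signal strength in this gap was not tested. The group means, from DMSO (2.01 ± 0.46, SD, n = 2) through resveratrol (1.61 ± 0.65) and Sirt1 KO (1.27 ± 1.11) to WT (0.91 ± 1.42), overlapped between all neighbours. Within pairs, Sirt1 KO was higher by 0.14 and 0.58 and resveratrol lower by -0.27 and -0.54. The mean differences were 0.36 and -0.40 (SE 0.78 each), and neither passed limma's test with or without the replicate block (blocked adjusted p = 0.34 and 0.264).

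Itga7 encodes the laminin receptor chain best known from muscle. Its values were -4.25 and -5.09 in WT, -2.63 and -3.66 in Sirt1 KO, -2.98 and -2.14 in DMSO, and -2.36 and -3.64 with resveratrol. One of the WT arrays did not measure it above background, and both WT arrays were below all 6 others. The means ran from DMSO (-2.56 ± 0.60, SD, n = 2) through resveratrol (-3.0 ± 0.91) and Sirt1 KO (-3.15 ± 0.73), which overlapped, to WT (-4.67 ± 0.59). Sirt1 KO was 2.87-fold higher than WT (log2 difference 1.52, SE 0.63, 95% interval 0.02 to 3.02), with 1.62 and 1.43 on the pairs, but the limma adjusted p was 1.0, or 0.188 with the replicate block. The direction turned to -0.59 with a background estimated around each spot. The resveratrol difference was -0.44 (SE 0.63), with 0.63 and -1.50 on the pairs, which point in opposite directions.

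Itga3 encodes alpha3, a receptor for laminins of basement membranes. Its values were -3.25 and -1.88 in WT, -3.94 and -1.76 in Sirt1 KO, -3.03 and -3.26 in DMSO, and -2.95 and -2.83 with resveratrol. In the genotype groups replicate 2 was far above replicate 1, and the resveratrol arrays lay just above the DMSO arrays (difference 0.25, SE 0.76). The order of means was WT (-2.56 ± 0.97, SD, n = 2), Sirt1 KO (-2.85 ± 1.54), resveratrol (-2.89 ± 0.08) and DMSO (-3.14 ± 0.16), with WT and Sirt1 KO overlapping every group. The second probe put replicate 2 below replicate 1 in all 4 groups, at -3.00 and -4.07 in WT, so the probes disagree on the replicates. Their Sirt1 KO differences were -0.29 and -0.37 and their resveratrol differences 0.25 and 0.18. The SE of the main probe was 0.76, although its DMSO and resveratrol arrays did not overlap. The remaining Itga3 probe was above background on 3 arrays and was not used.

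Among the beta subunits, Itgb1 encodes beta1, the shared partner of alpha3, alpha5, alpha6, alpha7 and alpha8. Its values were 2.42 and 2.19 in WT, 2.40 and 1.86 in Sirt1 KO, 2.21 and 2.15 in DMSO, and 2.37 and 2.06 with resveratrol. The means ran from WT (2.30 ± 0.16, SD, n = 2) through resveratrol (2.21 ± 0.22) and DMSO (2.18 ± 0.04) to Sirt1 KO (2.13 ± 0.39), and all groups overlapped. The differences were -0.17 for Sirt1 KO and 0.03 for resveratrol (SE 0.27 each, 95% intervals -0.81 to 0.47 and -0.61 to 0.67). Both signs turned with a background estimated around each spot, and the second probe gave 0.11 and 0.18, so no direction can be given for Itgb1. The Itga8 differences had intervals on 1 side of 0 in both comparisons. Those intervals are unadjusted and Itga8 had been named by earlier results of these data, so they are not read as support.

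Itgb5 encodes beta5, which pairs with alphav as a vitronectin receptor. Its values were 1.56 and 1.93 in WT, 1.82 and 2.86 in Sirt1 KO, 1.82 and 2.06 in DMSO, and 1.84 and 2.52 with resveratrol. Replicate 2 was higher in all 4 groups and the groups overlapped, with means of 2.34 ± 0.73 (SD, n = 2) in Sirt1 KO, 2.18 ± 0.48 with resveratrol, 1.94 ± 0.17 in DMSO and 1.74 ± 0.26 in WT. Sirt1 KO was higher than WT by 0.26 and 0.93 on the pairs (mean 0.60, SE 0.41, blocked adjusted p = 0.19 by limma), and resveratrol higher than DMSO by 0.02 and 0.45 (mean 0.24, SE 0.41).

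**Figure D3:**
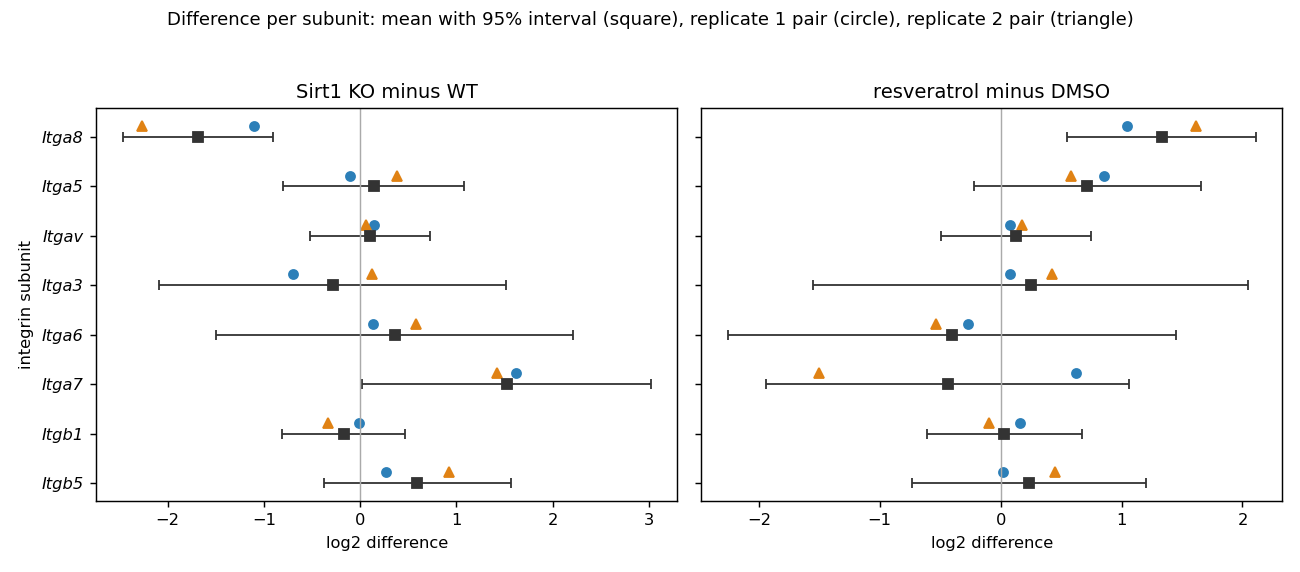
Log2 difference of each measured integrin subunit for Sirt1 KO minus WT (left panel) and resveratrol minus DMSO (right panel). Squares with bars are the limma estimate and its 95% interval from 8 arrays, circles the difference of the replicate 1 arrays and triangles that of the replicate 2 arrays. For Itga8 the pairs are -1.10 and -2.27 on the left and 1.04 and 1.62 on the right, and the Itga7 pairs on the right are 0.63 and -1.50.

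Both replicate pairs were higher for 4 and lower for 2 of the 8 measured subunits in Sirt1 KO, where 23.4% of all genes were higher and 32.4% lower on both pairs. After resveratrol they were higher for 5 and lower for 1, against 35.5% and 33% of all genes. Counted over the 8 measured subunits, the Sirt1 KO and WT arrays did not overlap for Itga7 and Itgav (higher) and for Itga8 (lower), against 7.58% of all genes separate and higher and 7.35% separate and lower. After resveratrol Itga8, Itga5 and Itga3 were separate and higher and none lower, against 10.2% and 8.86% of all genes. The median difference of the subunits was 0.12 and 0.18 in these comparisons, and that of all genes -0.03 and 0.01. By limma 0 of 8 subunits and 0 of 13332 genes (0%) passed in either comparison, and 158 and 203 genes had an unadjusted p under 0.05 (0.795% of all genes higher and 0.39% lower in Sirt1 KO, 1.21% and 0.315% after resveratrol). Among them, Itga8 was the subunit that appeared in both, and Itga7 (unadjusted limma p of 0.0475) appeared in the first. With the replicate block, 57 and 73 genes passed, higher calls being 0.338% and 0.48% of all genes and lower calls 0.09% and 0.0675%, and again no subunit. Itga8 was 1 of 121 genes (0.908%) whose arrays were separate and lower in Sirt1 KO and separate and higher after resveratrol, and no subunit was among the 88 genes (0.66%) with the reverse.

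The control groups DMSO and WT differ in strain, solvent, culture handling and, for replicate 1, sex, which cannot be told apart, and only the slide holding both replicate 1 arrays was shared. Itga7 was higher in DMSO than in WT (2.11, SE 0.63) and Itga8 lower (-1.23, SE 0.33), both with separate arrays, as were 12.7% of all genes upward and 13.5% downward. Neither passed limma's test (adjusted p = 0.525 and 0.445). Itgav was also separate and lower (-0.28), and Itga6 was higher by 1.10 with an SE of 0.78. Only 10 genes passed in this comparison, 0.03% of genes upward and 0.045% downward, and no subunit from the 10 studied here was among them. With the replicate block Itga6, Itga7 and Itga8 passed (adjusted p = 0.00256, 0.0198 and 0.0228), as did 5.57% of genes upward and 6.21% downward, but that fit takes the spread between replicates out of the error of a comparison between strains.

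Of the 17 other integrin subunits, 8 were measured. Itga9, whose alpha9 chain binds tenascin-C and osteopontin, was the gene among them that passed a limma test. Its values were 1.74 and 1.66 in WT, 1.01 and 0.61 in Sirt1 KO, -2.15 and -2.08 in DMSO, and -1.82 and -1.58 with resveratrol. All C57BL/6 arrays were far below all 129/ICR arrays, and Itga9 was 14.1-fold lower in DMSO than in WT (log2 difference -3.82, SE 0.24, limma adjusted p = 0.0156). A second probe gave -2.44. Without WT replicate 1, WT replicate 2, DMSO replicate 1 or DMSO replicate 2 the adjusted p was 0.0634, 0.12, 0.119 or 0.154, with differences of -3.86 to -3.77.

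Within the strains Itga9 had the pattern of Itga8 at a smaller size. It was lower in Sirt1 KO by -0.74 and -1.05 on the pairs (mean -0.89, SE 0.24) and higher after resveratrol by 0.33 and 0.50 (mean 0.41, SE 0.24), with arrays separate both times. The limma adjusted p was 1.0 in both, or 0.0541 and 0.262 with the replicate block. Itga1, a collagen receptor chain, was separate and lower in Sirt1 KO (-0.68, SE 0.40), and Itga4, which binds VCAM-1 and fibronectin, was separate and higher after resveratrol (0.70, SE 0.38), as was Itgae (0.43, SE 0.69). Of the 8, 0 were separate and higher in Sirt1 KO and 0 separate and lower after resveratrol, and their median differences were -0.11 and 0.44. Over all genes 7.58% were separate and higher and 7.35% lower in Sirt1 KO, and 10.2% and 8.86% after resveratrol. The medians of all genes were -0.03 and 0.01. No gene of this list passed limma's test within a strain.

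The ligands were described in the same way, beside all genes. Of these 7.58% were separate and higher and 7.35% lower in Sirt1 KO, and 10.2% and 8.86% after resveratrol. Their medians were -0.03 and 0.01. Among 12 measured RGD ligands and latent TGF-beta genes, 2 were separate and higher and 1 lower in Sirt1 KO, and 5 were higher and 0 lower after resveratrol, with medians of 0.26 and 0.30. The leading gene in both was Npnt, which encodes nephronectin, the high-affinity ligand of alpha8/beta1. Its values were -4.07 and -3.47 in WT, -1.37 and -2.77 in Sirt1 KO, -3.84 and -3.69 in DMSO, and -3.00 and -2.80 with resveratrol. Npnt was thus separate and higher in Sirt1 KO (1.70, SE 0.51), where Itga8 was lower, and separate and higher after resveratrol (0.87, SE 0.51), where Itga8 was higher. Neither passed limma's test (adjusted p = 1.0, or 0.135 and 0.41 with the replicate block), and the first turned to -0.11 with a background estimated around each spot. In Sirt1 KO Tgfb3 was separate and higher (0.45) and Tgfb2 separate and lower (-0.35), both encoding TGF-beta ligands. After resveratrol the tenascin-C gene Tnc (0.50, SE 0.37), Ccn1 (0.32), which encodes a matricellular protein, and Nrros (0.27), whose product holds latent TGF-beta on cells, were separate and higher.

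Among 11 measured laminin genes and other ligands of laminin receptors, 0 were separate and higher and 1 lower in Sirt1 KO, and 1 was higher and 1 lower after resveratrol. The lower gene both times was Lamc3, a laminin gamma chain gene, which passed the filter through DMSO alone. It was above background on 1 of 2 WT arrays and 0 Sirt1 KO or resveratrol arrays, so its differences are not taken as a change. Lama3 was separate and higher after resveratrol (0.76, SE 0.76). Of 7 measured collagens 0 were separate in Sirt1 KO, and after resveratrol Col1a2 was separate and higher (0.31). Among all genes 7.58% were separate and higher and 7.35% lower in Sirt1 KO, and 10.2% and 8.86% after resveratrol.

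On the cytoplasmic side, of 33 measured activators and focal adhesion genes, 3 were separate and higher and 4 lower in Sirt1 KO, and 3 higher and 2 lower after resveratrol, with medians of 0.02 and 0.09. Shares over all genes were 7.58% and 7.35% in Sirt1 KO and 10.2% and 8.86% after resveratrol, with medians of -0.03 and 0.01. Lims2, encoding the adaptor PINCH-2 that links integrin-linked kinase to the focal adhesion, was at 0.17 and 0.82 in WT, 1.77 and 0.96 in Sirt1 KO, 1.81 and 1.99 in DMSO, and 0.73 and 0.75 with resveratrol. It was higher in Sirt1 KO (0.87, SE 0.34) and lower after resveratrol (-1.16, SE 0.34), the reverse of Itga8, without passing limma's test (adjusted p = 1.0, or 0.226 and 0.117 with the replicate block). In Sirt1 KO Parvb, encoding the ILK partner beta-parvin, was separate and higher (1.15) but lower with a background estimated around each spot (-1.02). Parvb was above background on only 1 of 2 arrays in both WT and Sirt1 KO. The kinase gene Src was separate and lower in Sirt1 KO (-0.47). Fermt3, a kindlin gene best known from blood cells, passed the filter through DMSO alone and was above background on 0 Sirt1 KO arrays. It was counted as separate and lower in both comparisons, but its differences are not taken as a change. Its resveratrol difference of -1.39 turned to 0.09 with a background estimated around each spot. The filamin gene Flna was separate and higher after resveratrol (0.17). Kank2, a focal adhesion protein gene, was separate and higher after resveratrol (0.94, SE 0.27, blocked adjusted p = 0.0964).

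The membrane partners held the calls nearest to the integrins, all with the replicate block. Over all genes 7.58% were separate and higher and 7.35% lower in Sirt1 KO, and 10.2% and 8.86% after resveratrol. The medians of all genes were -0.03 and 0.01. Of 12 measured partners, 4 were separate and higher and 0 lower in Sirt1 KO, and 2 higher and 0 lower after resveratrol, with medians of 0.25 and 0.29. Those not described below were the heparan sulfate receptor gene Sdc4 (0.97), Bsg (0.54) and the tetraspanin gene Cd63 (0.50) in Sirt1 KO, and Cd47 (0.16), the gene of an alphav/beta3 partner, after resveratrol. Cd151 encodes the tetraspanin that binds alpha3/beta1 and alpha6/beta1 and was at 3.1 and 4.34 in WT, 3.34 and 4.49 in Sirt1 KO, 3.25 and 4.14 in DMSO, and 4.17 and 5.79 with resveratrol. Replicate 2 was higher in all 4 groups, and resveratrol was above DMSO by 0.93 and 1.65 on the pairs. Its difference of 1.29 (SE 0.72) had a limma adjusted p of 1.0, and it rose with the replicate block (adjusted p = 0.0241). Without DMSO replicate 2 or resveratrol replicate 2 the blocked call was lost (adjusted p = 0.261 and 0.324, with differences of 0.93), as it was with the mean of each gene's probes (0.0672) and with slide as the block (0.971).

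Cd82 encodes a tetraspanin known as a metastasis suppressor that associates with alpha3, alpha5 and beta1 chains. Its values were -2.88 and -3.86 in WT, -0.51 and -0.78 in Sirt1 KO, -1.08 and -2.74 in DMSO, and -1.08 and -3.45 with resveratrol, and one of the WT arrays did not measure it above background. Both Sirt1 KO arrays were above all 6 others, and Cd82 was 6.62-fold higher than in WT (log2 difference 2.73, SE 0.87), by 2.38 and 3.08 on the pairs. The limma adjusted p was 1.0, and with the replicate block Cd82 rose in Sirt1 KO (adjusted p = 0.00777), a call that was lost with slide as the block (0.283). The resveratrol difference was -0.36 (SE 0.87), and the difference between the responses was -3.08, which passed with the block (adjusted p = 0.016) but not with limma's groups alone (1.0) or with the block and the mean of each gene's probes (0.0514), nor with slide as the block (0.555). With a background estimated around each spot the Sirt1 KO difference was 0.85.

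**Figure D4:**
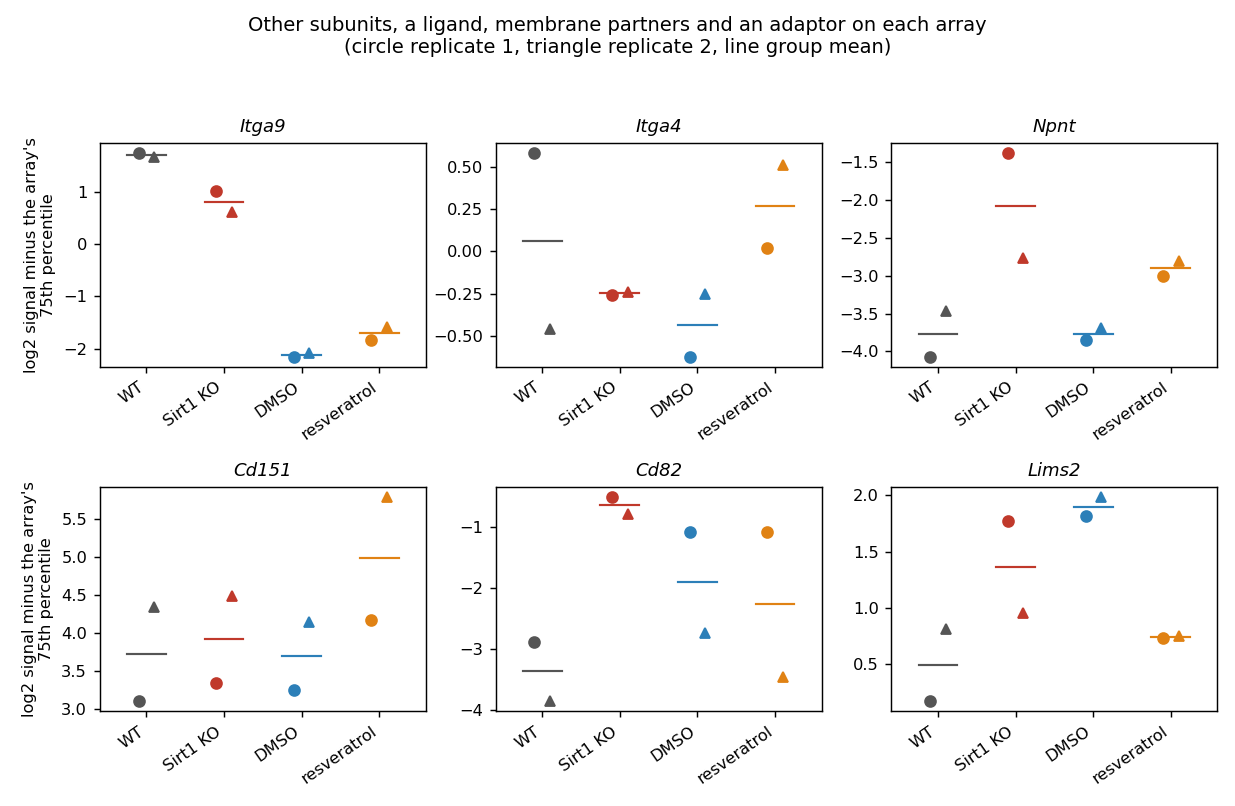
Log2 signal minus the array's 75th percentile (vertical axis, a separate scale for each gene) for the subunits Itga9 and Itga4, the ligand Npnt, the membrane partners Cd151 and Cd82 and the adaptor Lims2. Circles are replicate 1, triangles replicate 2 and lines the mean of 2 arrays. Itga9 lies at 0.61 to 1.74 on the WT and Sirt1 KO arrays and at -2.15 to -1.58 on the DMSO and resveratrol arrays.

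Between the control groups, which share arrays with both comparisons above, 12.7% of all genes were separate and higher and 13.5% lower. Of the 7 measured collagens 3 were separate and lower in DMSO than in WT: Col6a2 (-1.27, SE 0.79), Col1a2 (-0.71) and Col5a1 (-0.68). The laminin gene Lamb3 (-1.23, SE 0.57) and Tgfb2 (-0.81, SE 0.21) were also separate and lower, and Lamc3 was separate and higher by 0.10 with no settled direction. Of the membrane partners 5 were separate and higher and 1 lower, led by the caveolin gene Cav1 (2.77, SE 1.36), Sdc4 (-2.40, SE 0.58), Cd82 (1.46) and Bsg (0.57). Among activators and focal adhesion genes 4 were separate and higher and 5 lower, led by Lims2 (1.41, SE 0.34), Fermt3 (1.11), the endocytic adaptor gene Dab2 (-0.82) and Kank2 (-0.82). Fermt3 passed the filter through DMSO alone, so its difference is not taken as a change. Itgb4, the beta chain that pairs with alpha6 in hemidesmosomes, was separate and higher (0.68). With a background estimated around each spot Fermt3 and Itgb4 turned to -1.14 and -0.92 and Cd82 differed by 0.021. With the mean of its probes Sdc4 differed by -0.49. None of these genes passed limma's test (adjusted p = 0.366 for Lims2 and Sdc4, 0.439 for Tgfb2).

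The 5 genes whose values followed Itga8 most closely over the 8 arrays were Pde1c (Pearson r = 0.925), 9230114K14Rik (0.913), Ptprj (0.910), Dio2 (0.899) and Slc24a2 (0.893). Pde1c encodes a cyclic nucleotide phosphodiesterase, Ptprj a receptor tyrosine phosphatase, Dio2 the deiodinase that activates thyroid hormone, and Slc24a2 a sodium/calcium exchanger, whose probe was above background on 5 of 8 arrays. These are descriptions over 4 groups of 2 arrays, picked as the highest of all genes, and they share the arrays' groups and slides. The Sirt1 KO and resveratrol differences of these genes ran from -0.70 to -0.23 and from 0.27 to 0.73, smaller than those of Itga8. The genes running most opposite, looked up after the values were seen, were led by Mfng (r = -0.966), a fringe enzyme that modifies Notch, which was higher in Sirt1 KO (1.59, SE 0.39) and lower after resveratrol (-1.07, SE 0.39).

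**Figure D5:**
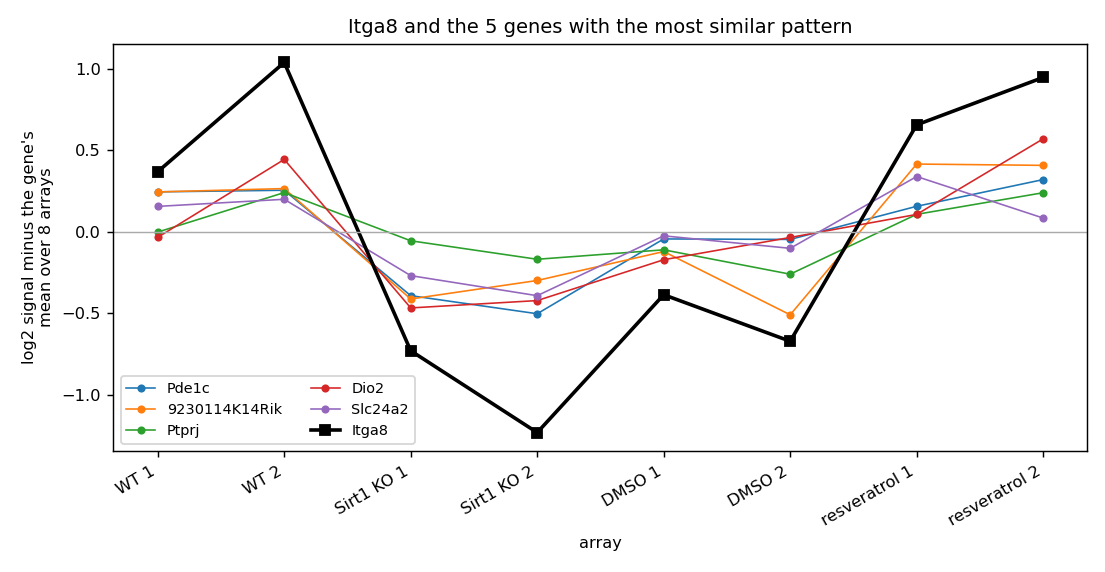
Log2 signal minus the gene's mean over 8 arrays (vertical axis) for Itga8 (black) and the 5 genes most like it, with the 8 arrays on the horizontal axis. Each line joins the arrays of 1 gene. All 6 genes are lower on both Sirt1 KO arrays than on both WT arrays, and Itga8 spans the widest range.

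Markers of cell types were set beside these values for the cultures as a whole. The summed level of the 6 measured pericyte, smooth muscle and fibroblast markers (75th percentile signal = 1) was 29.3 and 21.0 in WT, 24.6 and 27.9 in Sirt1 KO, 26.8 and 31.4 in DMSO, and 26.8 and 27.0 with resveratrol, so in both comparisons the groups overlapped. Acta2 (4.11 to 4.73, log2) was by far the highest of the 6 on every array. The sum therefore mainly follows Acta2 and says little of the other markers. The sums of the 3 microglial markers (0.18 to 0.54) and of the 2 endothelial markers (0.16 to 0.97) were below 1 on all 8 arrays. Among single markers, Id4 was separate and higher in Sirt1 KO (1.05, SE 0.30). The astrocyte water channel gene Aqp4 was also separate and higher there (2.25, SE 0.63), but it passed the filter through Sirt1 KO alone. It was above background on 1 of 2 WT arrays, so its difference is not taken as a change. The intermediate filament gene Gfap was above background on 0 WT arrays and 1 of 2 Sirt1 KO arrays, so no fold is given for it there. After resveratrol Gfap was separate and higher (1.69, SE 0.64). None of these 3 genes passed limma's test with or without the replicate block. The astrocyte gene Aldoc was separate and higher in Sirt1 KO (0.95). It passed limma's test with the replicate block (adjusted p = 0.016), but not with the groups alone or with slide as a block. The endothelial receptor gene Flt1 (2.06) and the smooth muscle gene Tagln (0.99) were separate and higher in Sirt1 KO and passed with the replicate block (adjusted p = 0.0158 and 0.0208), but not with limma's groups alone or with slide as a block. Another smooth muscle gene, Myh11, was separate and lower (-0.56), but above background on only 1 of 2 arrays in both WT and Sirt1 KO. The median over the 6 pericyte, smooth muscle and fibroblast markers was -0.11. The Notch target Hes5 ran opposite to Itga8, higher in Sirt1 KO (1.66) and lower after resveratrol (-1.81), and passed with the replicate block (adjusted p = 0.0091 and 0.0143), not without it or with slide as a block. Of 14 neural stem cell markers, 4 were separate and higher and 1 lower in Sirt1 KO, and 3 were higher and 3 lower after resveratrol. Of 7 measured astrocyte markers, 3 were separate and higher in Sirt1 KO, Aqp4 among them, and 1 after resveratrol, with 0 lower in each. Of 7 oligodendrocyte precursor markers, 0 were separate and higher in either comparison, and 1 was lower in Sirt1 KO and 2 after resveratrol. With the replicate block, 1 of the 7 passed limma's test as higher in Sirt1 KO and 0 as lower, against 0.338% and 0.09% of all genes. Gpr17 was at 2.90 and 1.76 in WT and at 5.15 and 2.83 in Sirt1 KO, higher on both pairs with overlapping arrays. On both pairs 2 of the 7 were higher and 4 lower in Sirt1 KO, against 23.4% and 32.4% of all genes. Among all genes 7.58% were separate and higher and 7.35% lower in Sirt1 KO, and 10.2% and 8.86% after resveratrol. The part of such shifts in the integrin values was not tested.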

How the data were processed

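Of 8 one-colour arrays, each held 45018 spots. The authors deposited scanner files with background-subtracted intensity per probe from Agilent Feature Extraction (version 10.7.3.1, per the file headers), and a table of log2 values in which arrays share a quantile distribution in 2 sets. Its scale is log2 of that intensity and its centring (medians 6.28 and 6.01) is unexplained by the sources used here. In R 4.3.3, log2 intensity was centred on each array's 75th percentile, a probe was kept where both arrays of a group were well above background, and each gene was represented by its brightest kept probe. Probes were named through RefSeq accessions, and 14256 of 41174 could not be named. Differences were tested two-sided with limma 3.58.1 (trend) over 4 groups, with Benjamini-Hochberg adjustment over 13332 genes and a threshold of 0.05, and tested on simulated data.

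Same-numbered arrays deviated together from their group means (r = 0.737 between WT and Sirt1 KO, 0.834 between DMSO and resveratrol). They also did so across the strains, less closely (0.596 between WT and DMSO, 0.643 between Sirt1 KO and resveratrol). The deviation is thus not particular to the pairs of a comparison, and the part of the dimmer replicate 2 signal in it was not tested. The numbers mark sex in the genotype groups per the labels and slides in the treated groups per the file headers, so the fit with replicate number as a block is given beside results whose call it changes. For DMSO minus WT the block leaves the spread between replicates out of the error. Background correction (normexp), normalization, probe choice, filters, blocks and left-out arrays were varied. The files used here hold median spot signals, so normexp used those instead of means. A fixed background per array, the block combined with other choices and blocked fits without 1 array were chosen after seeing the data. The subunits and gene lists were chosen with earlier results of these data known, and those results had named Itga8. Genes from the lists are named where the compared groups do not overlap, at most 4 per list with the largest differences, and Itga8 was set beside the 5 genes with the highest correlation.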

Additional observations from a re-analysis of the deposited data

Results flagged for a closer look

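Itga8 was lower in both Sirt1 KO pairs and higher in both resveratrol pairs, so that the difference between the responses was 3.02 (log2). The same signs were found for 1397 of 13332 genes. Itga6 was higher in both Sirt1 KO pairs and lower in both resveratrol pairs, with a difference of -0.76 (SE 1.10), as were 880 genes. By limma neither difference passed (adjusted p = 1.0 each), and with the replicate block the adjusted p was 0.0254 for Itga8 and 0.189 for Itga6.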

How the results depend on the processing

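Itga8 kept its direction in every comparison and under all settings run, including each left-out array. Outside left-out arrays it ran from -1.80 to -1.18 in Sirt1 KO, 1.0 to 1.33 after resveratrol, -1.25 to -0.92 in DMSO against WT and 2.19 to 3.13 between the responses. The third of these comparisons, between strains, is not a fair use of the replicate block, because the block removes the spread between replicates from its error. With replicate number as a block, 57, 73, 1570 and 49 genes were called for Sirt1 KO minus WT, resveratrol minus DMSO, DMSO minus WT and the difference between the responses. These were 25, 37, 1473 and 24 with quantile normalization as well, and 18, 3, 1373 and 10 with the mean of each gene's probes. In all 3 blocked fits 3 subunits were called for DMSO minus WT, and between the responses 1 with the block alone and 0 with either addition. The 10 genes of DMSO minus WT became 4 with normexp around each spot, 4 with probes above background on all arrays, 145 with slide as a block and 5 with the 4 arrays compared. With normexp and a background around each spot, Sirt1 KO minus WT turned for Itga5 (-0.74, and -0.024 with 1 background per array), Itga7 (-0.59), Itgb1 (0.16), Npnt (-0.11) and Parvb (-1.02). Resveratrol minus DMSO turned with both backgrounds for Itga7 (0.053 and 0.055), Itgb1 (-0.0038 and -0.0055), Lamc3 (0.075 and 0.10) and Fermt3 (0.088 and 0.051). DMSO minus WT turned with the background around each spot for Itga5 (-0.64), Itga7 (-0.41), Itgb1 (0.22), Itgb4 (-0.92), Lamc3 (-1.32, and -0.18 with 1 background per array) and Fermt3 (-1.14), and with slide as a block for Itga3 (0.36). The difference between the responses turned for Itga7 (0.65), Itgav (-0.10, and -0.15 with slide as a block) and Itgb1 (-0.16). The cause of these turns was not tested.

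Leaving out 1 array at a time, counts of called genes ran from 0 to 5 for Sirt1 KO minus WT, 0 to 0 for resveratrol minus DMSO, 0 to 4 for DMSO minus WT and 0 to 3 between the responses, with 0 subunits in each. Without Sirt1 KO replicate 1 or 2 the first was 5 or 3, and DMSO minus WT was 0 without any 1 of the WT and DMSO arrays. In a group left with 1 array, that array was assumed to vary like the other groups. With the replicate block as well, the counts reached 90 to 571, 3 to 817, 420 to 3124 and 16 to 567 genes and 1 to 2, 0 to 1, 0 to 3 and 0 to 2 subunits, with few residual degrees of freedom. With left-out arrays, Sirt1 KO minus WT ran from -1.38 to 0.80 for Itga3, -0.10 to 0.39 for Itga5, -0.65 to 1.36 for Itga6 and -0.45 to 0.10 for Itgb1. Resveratrol minus DMSO ran from -0.86 to 0.053 for Itga6, -1.50 to 0.63 for Itga7, -0.13 to 0.38 for Itgav, -0.12 to 0.19 for Itgb1 and -0.10 to 0.58 for Itgb5. DMSO minus WT ran from -1.26 to 0.11 for Itga3, -0.079 to 0.43 for Itga5, -0.28 to 0.041 for Itgb1, -0.13 to 0.53 for Itgb5, -0.0062 to 0.20 for Lamc3 and -0.27 to 2.49 for Fermt3. The difference between the responses ran from -0.56 to 1.63 for Itga3, -1.77 to 0.24 for Itga6, -0.23 to 0.28 for Itgav, -0.070 to 0.48 for Itgb1 and -0.88 to 0.16 for Itgb5. In these blocked fits the Itga8 difference ran from -2.27 to -1.10 in Sirt1 KO and from 1.04 to 1.62 after resveratrol. Where an array of the comparison was left out, the difference rested on 1 pair. The calls of such fits are therefore not read as support. Signal over background leaves Itga2 unmeasured and Itga7 unmeasured on 1 WT array.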
